A study of Mus musculus with 23 samples.

Results

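The genes described here are those of the endocannabinoid system that encode the brain cannabinoid receptor, a protein that binds it, and the enzymes that make and break down its lipid ligands. They were chosen by gene symbol from the deposited expression table. All 9 of the listed symbols (Cnr1, Cnrip1, Dagla, Daglb, Mgll, Abhd6, Abhd12, Napepld and Faah) were found among the 19733 genes of the table, and all 9 passed the filter on low expression. Endocannabinoids are lipids that a neuron makes on demand from its own membrane. They travel backwards across the synapse to CB1R, a receptor on the presynaptic terminal that reduces transmitter release, and are then hydrolysed. The best known of them are 2-arachidonoylglycerol (2-AG) and anandamide (AEA), and in the hippocampus CB1R is abundant on the terminals of interneurons that contain cholecystokinin.

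Transcripts were measured by RNA sequencing of the hippocampus of male wild-type C57BL/6J mice, with 9 Ctrl, 7 EtOH and 7 EtOH-UA mice. They were 6 weeks old on arrival, and each group of the animal experiment had 10 mice. All groups were kept on AIN93M liquid diets and gavaged daily for 16 weeks. Ctrl mice had the control diet and EtOH mice the ethanol diet, both with the CMC-Na vehicle (0.05%), and EtOH-UA mice had the ethanol diet with urolithin A (UA), a gut bacterial metabolite of ellagitannins, at 200 mg/kg/day in that vehicle. A further 1 week of behavioral tests preceded sampling. Values are FPKM, fragment counts divided by transcript length and by the size of the library, so that levels of different genes can be compared. The steps between the lowest values put 1 FPKM at 16.7 fragments for each kilobase of transcript (the median of 13 genes), so a mouse contributed from about 600 fragments of Napepld to about 4400 of Cnr1. Counting error at this depth was between 1.51% and 3.94% of the level. For each gene it was below the spread between the mice of each whole group. The depth is a rough figure, since single genes among the 13 gave from 5.85 to 18.1 fragments. Libraries were not alike in composition. In 6 libraries (3 Ctrl, 1 EtOH and 2 EtOH-UA) the FPKM of all genes summed to 358381 or more, and in the other 17 to 346742 or less. These 6 libraries also had lower values for long transcripts, with a slope of -0.262 to -0.0587 log2 FPKM per doubling of transcript length against -0.0102 to 0.0921 in the others. Results that rest on them are given with and without them, a comparison chosen after the data had been seen. All 5 neuronal markers were detected, with a summed level of 2081 to 2317 FPKM in Ctrl, 2005 to 2217 in EtOH and 1951 to 2209 in EtOH-UA mice. The 5 markers of choroid plexus, a tissue that adjoins the hippocampus, summed to between 7.89 and 2967 FPKM in Ctrl, 69.4 and 5741 in EtOH and 16 and 7809 in EtOH-UA mice, and the 5 of ependyma to between 6.73 and 16.9, 13 and 27.2, and 7.88 and 23.4. The 5 blood markers summed to between 40.3 and 137 FPKM in Ctrl, 29.3 and 201 in EtOH and 84.3 and 276 in EtOH-UA mice, and the 5 astrocyte markers to between 339 and 446, 385 and 404, and 343 and 429. The 5 hippocampal subfield markers summed to between 105 and 145 FPKM in Ctrl, 116 and 132 in EtOH and 105 and 144 in EtOH-UA mice. Single subfield markers varied more, with Prox1 at 5.66 to 22.89 FPKM in Ctrl and Fibcd1 at 3.62 to 33.39 in EtOH-UA mice. Cpne4 varied less, at 24.91 to 45.01 FPKM in Ctrl mice. What part these tissues, cells and subfields have in the values of the 9 genes, or in their correlations, was not tested. In whole tissue, fewer cells of a type and less RNA per cell cannot be told apart.

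The most abundant of the 9 transcripts was that of the hydrolase Abhd12, with a mean of 130 FPKM over the 23 mice, above 97.4% of the genes that averaged 0.1 FPKM or more. Cnr1 (45.1 FPKM), Cnrip1 (44.6) and Mgll (44.5) followed at nearly the same level and could not be ordered, since Cnr1 exceeded Cnrip1 in 15 of 23 mice and Cnrip1 exceeded Mgll in 11. Faah came next at 37.4 FPKM and was below Mgll in every mouse. Abhd6 and Dagla shared a level of 25 FPKM, with Abhd6 the higher in 10 of 23 mice. Daglb (10.8 FPKM) and Napepld (9.78 FPKM) were the lowest, and Daglb was the higher of them in 18 mice. Mgll lay above Dagla and Faah above Napepld in all 23 mice, so in these pairs the breakdown enzyme had the higher transcript level. For AEA this depends on the pair chosen. In Ctrl mice the other AEA synthesis genes Gde1 (mean 84 FPKM), Gdpd1 (20.3) and Abhd4 (18.9) lay above Napepld (9.44). Pla2g4e (3.09), Inpp5d (2.6) and Ptpn22 (0.541) lay below it.

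**Figure D1:**
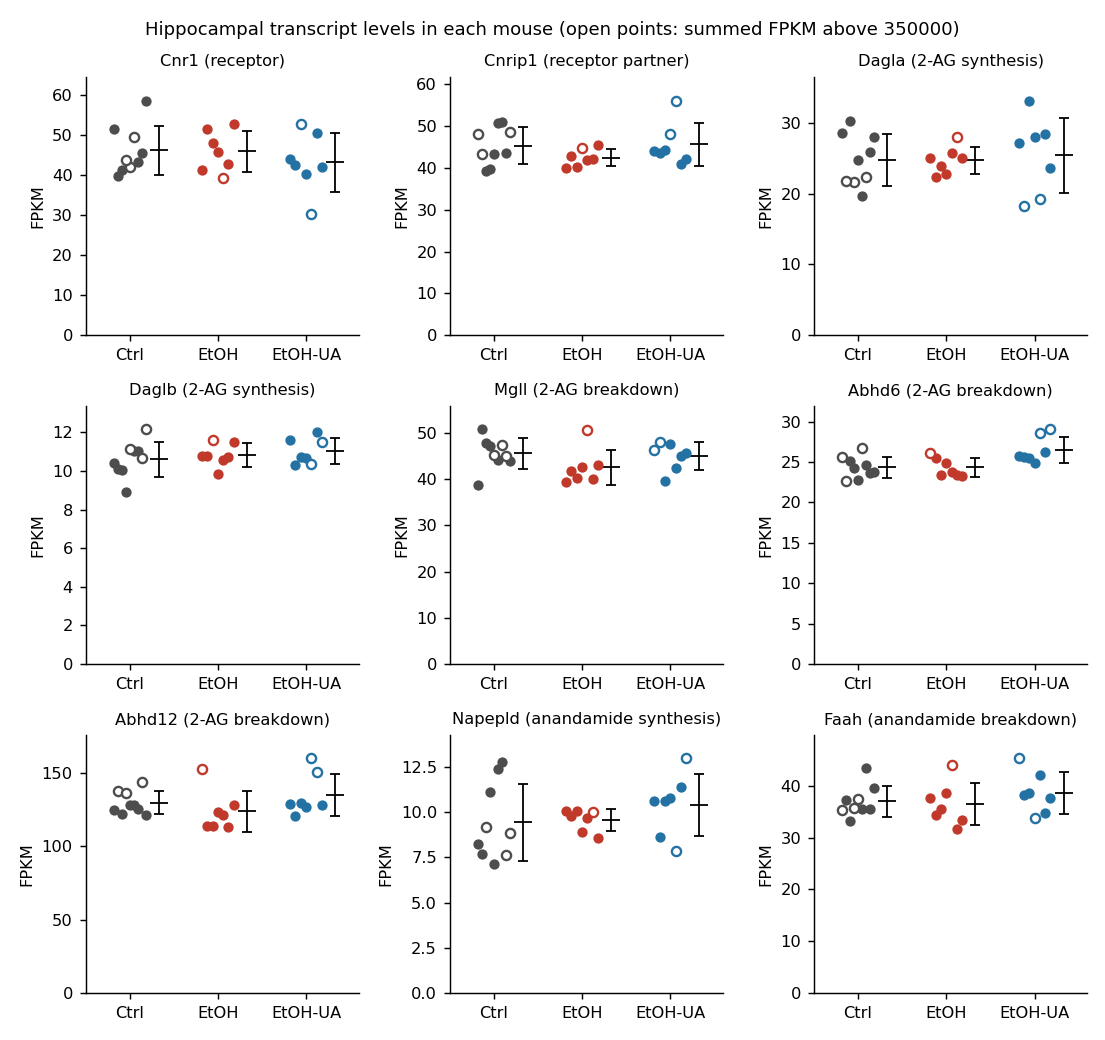
FPKM of each of the 9 genes (vertical axes, from 0) in each mouse of the Ctrl, EtOH and EtOH-UA groups, with the mean and SD beside the points and open points for the 6 libraries of high summed FPKM. The groups overlap for every gene, and the 2 highest Abhd6 values, 29.03 and 28.63 FPKM, are the open EtOH-UA points.

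Cnr1 encodes CB1R and lies on mouse chromosome 4 (GRCm38, 33923171 to 33948831). The level was lowest at 39.74, median 43.64 and highest at 58.49 FPKM in Ctrl mice. In EtOH mice these values were 39.14, 45.61 and 52.68 FPKM, and in EtOH-UA mice 30.12, 42.31 and 52.64 FPKM. The ranges of EtOH and Ctrl mice lay almost on each other, and only 1 EtOH-UA mouse, at 30.12 FPKM, fell below all the others. Means were 46.1 ± 6.03 (SD, n = 9), 45.8 ± 5.14 (n = 7) and 43.1 ± 7.37 FPKM (n = 7). No difference exceeded the spread between mice. The log2 fold change in EtOH against Ctrl mice was -0.0055 (95% confidence interval -0.21 to 0.19, limma adjusted p = 0.999), so that the interval spanned 0.867 to 1.14 times the Ctrl level. In EtOH-UA against EtOH mice it was -0.10 (-0.31 to 0.11, limma adjusted p = 0.9) and against Ctrl mice -0.11 (-0.31 to 0.09, limma adjusted p = 0.999). The library of that 1 mouse had the highest summed FPKM of all, and without it the log2 fold change in EtOH-UA against EtOH mice was -0.018. The other EtOH-UA mouse of high summed FPKM had the highest Cnr1 of its group, 52.64 FPKM, and without that mouse the value was -0.15. Without all 6 libraries it was -0.10 (exact permutation p = 0.249), close to the value with them. The 5 markers of cholecystokinin interneurons, the cells with most CB1R in this tissue, summed to 209 to 296 FPKM in Ctrl, 184 to 296 in EtOH and 214 to 331 in EtOH-UA mice. This sum mainly follows Cck, which averaged 223 FPKM in Ctrl mice. Vip had 13.2, Htr3a 4.63, Sncg 2.55 and Slc17a8 1.54 FPKM there. What share of the Cck transcript came from cholecystokinin interneurons was not tested.

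Cnrip1, which encodes a protein that binds the tail of CB1R, lay between 39.36 and 50.96 FPKM in Ctrl mice, with a median of 43.54. EtOH mice had 39.97 to 45.46 FPKM, median 42.11, and EtOH-UA mice 40.94 to 56.13 FPKM, median 44.12. The EtOH mice formed the narrowest group, and its values lay inside the Ctrl range. The log2 fold change was -0.09 (SE 0.06) in EtOH against Ctrl mice and 0.10 (SE 0.07) in EtOH-UA against EtOH mice, with limma adjusted p-values of 0.999 and 0.9. Without the 6 libraries the latter difference was 0.032 (exact permutation p = 0.379), and the highest EtOH-UA value, 56.13 FPKM, came from the mouse with the lowest Cnr1.

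The diacylglycerol lipases make 2-AG, and Dagla (DAGLα) is the form held responsible for most of it at adult synapses. Dagla lay between 19.69 and 30.36 FPKM in Ctrl mice, with a median of 24.75. EtOH mice had 22.40 to 28.01 FPKM, median 25.06, and EtOH-UA mice 18.34 to 33.21 FPKM, median 27.15. EtOH-UA mice held both ends of the whole range. The SD was 3.68 FPKM for Ctrl, 1.91 for EtOH and 5.33 for EtOH-UA mice, and the group means of 24.8, 24.7 and 25.4 FPKM were close. The fitted log2 fold change was 0.0053 in EtOH against Ctrl mice and 0.016 in EtOH-UA against EtOH mice (95% confidence interval -0.22 to 0.25, limma adjusted p = 0.981). The 2 EtOH-UA libraries of high summed FPKM held the 2 lowest Dagla values of the group, 18.34 and 19.31 FPKM, whereas the EtOH library of that kind held the highest of its group, 28.01 FPKM. Without the 6 libraries the difference was 0.21 (exact permutation p = 0.0238, 5 EtOH-UA against 6 EtOH mice). Removing the lowest EtOH-UA values and the highest EtOH value raises this difference by construction. Dagla followed the length slope of the libraries with r = 0.584 (rho = 0.587) over 23 mice and r = 0.154 over the 17, and the part of library composition in the difference was not tested.

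Daglb, the other diacylglycerol lipase, was steadier. Ctrl mice had 8.89 to 12.15 FPKM, EtOH mice 9.82 to 11.63 and EtOH-UA mice 10.30 to 12.01. Group means were 10.6 ± 0.907, 10.8 ± 0.602 and 11 ± 0.67 FPKM, and the 95% confidence interval of the log2 fold change in EtOH-UA against EtOH mice ran from -0.09 to 0.14.

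Of the enzymes that hydrolyse 2-AG, Mgll encodes monoacylglycerol lipase, which removes most of it in the brain. Mgll lay between 38.77 and 50.73 FPKM in Ctrl mice, with a median of 45.17. EtOH mice had 39.39 to 50.63 FPKM, median 41.82, and EtOH-UA mice 39.64 to 48.02 FPKM, median 45.58. Of the 7 EtOH mice, 6 lay below the Ctrl median, and the exception at 50.63 FPKM was far above the next EtOH mouse at 43.10. The log2 fold change in EtOH against Ctrl mice was -0.10 (95% confidence interval -0.22 to 0.02, limma adjusted p = 0.999, two-sided exact permutation p = 0.104). Without that EtOH mouse the difference was -0.14 (exact permutation p = 0.012), and without 1 Ctrl mouse, the one with the lowest Mgll, it was -0.13 (exact permutation p = 0.0278). Removing either of these extreme values widens the difference by construction. Over all removals of 1 mouse the difference lay between -0.14 and -0.08. Without the 6 libraries it was -0.14 (exact permutation p = 0.0455). None of these passed when adjusted over all genes. In EtOH-UA against EtOH mice Mgll differed by 0.08 (exact permutation p = 0.187), and without the same EtOH mouse by 0.12 (exact permutation p = 0.0245). Over all removals of 1 mouse this difference lay between 0.06 and 0.12.

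Abhd6 encodes a membrane hydrolase that breaks down 2-AG on the postsynaptic side, where the lipid is made. Its level was lowest at 22.71, median 24.24 and highest at 26.71 FPKM in Ctrl mice, 23.27, 23.78 and 26.16 FPKM in EtOH mice and 24.90, 25.74 and 29.03 FPKM in EtOH-UA mice. All 7 EtOH-UA mice lay above the median of the Ctrl mice and above that of the EtOH mice, though the ranges overlapped. Means were 24.3 ± 1.32 (SD, n = 9), 24.4 ± 1.17 (n = 7) and 26.5 ± 1.62 FPKM (n = 7). The log2 fold change was 0.12 in EtOH-UA against EtOH mice (SE 0.05, 95% confidence interval 0.03 to 0.22, 1.09-fold), with an exact permutation p of 0.0117 and a limma p of 0.0138. Against Ctrl mice it was also 0.12 (SE 0.04, 95% confidence interval 0.03 to 0.21), with an exact permutation p of 0.00909 and a limma p of 0.00906. Adjusted over the 15985 genes tested, these limma p-values became 0.9 and 0.999, so Abhd6 did not pass the threshold in either comparison. Both comparisons use the same EtOH-UA mice. The 5 blood markers had a mean sum of 162 FPKM in these mice against 135 in EtOH and 99.5 in Ctrl mice. No blood marker passed an adjusted p under 0.05. Among the astrocyte markers, Gfap had a log2 fold change of 0.23 against Ctrl mice (limma adjusted p = 0.999). The others did not share it, with -0.025 for Slc1a3, 6e-04 for Gja1, 0.028 for Aldh1l1 and 0.066 for Aqp4. The part of blood and astrocytes in the Abhd6 difference was not tested. EtOH and Ctrl mice had almost the same Abhd6 level, with a log2 fold change of 9e-04. The 2 highest values, 29.03 and 28.63 FPKM, came from the EtOH-UA libraries of high summed FPKM, and the highest EtOH and Ctrl values, 26.16 and 26.71 FPKM, from libraries of the same kind. Without the 6 libraries the difference was 0.09 against EtOH mice (exact permutation p = 0.0152) and 0.09 against Ctrl mice (exact permutation p = 0.00866). The remaining EtOH-UA mice had an SD of 0.483 FPKM around a mean of 25.6, a small spread beside a counting error of about 3.28% for Abhd6. Over 34 alternative fits the log2 fold change against EtOH mice lay between 0.0854 and 0.14, with unadjusted limma p-values of 0.00648 to 0.0362 and adjusted p-values of 0.574 to 1. Not all of these fits could move it. Leaving out a Ctrl mouse cannot change this difference, and other pseudocounts or filters hardly can at this level.

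Abhd12, which encodes a further 2-AG hydrolase also known for its action on lysophosphatidylserine, lay between 121.20 and 143.86 FPKM in Ctrl mice, with a median of 127.99. EtOH mice had 113.08 to 153.04 FPKM, median 121.57, and EtOH-UA mice 120.84 to 159.98 FPKM, median 128.78. In each group the highest values were those of the libraries with high summed FPKM. Its log2 fold change in EtOH-UA against EtOH mice was 0.12 (95% confidence interval -0.02 to 0.27, limma adjusted p = 0.9, exact permutation p = 0.153). It was 0.09 without the 6 libraries (exact permutation p = 0.0563) and 0.18 without the 1 EtOH mouse at 153.04 FPKM (exact permutation p = 0.0186). In EtOH against Ctrl mice it was -0.07 (exact permutation p = 0.261), and -0.12 without that mouse (exact permutation p = 0.0158). Removing the highest EtOH value widens both differences by construction. Over all removals of 1 mouse they lay between 0.08 and 0.18 in EtOH-UA against EtOH mice and between -0.12 and -0.05 in EtOH against Ctrl mice. Over the 23 mice, Abhd12 followed the length slope of the library more closely than any other of the 9 genes, with r = -0.884 and rho = -0.758 (permutation p adjusted over 9 genes 9e-05 for r, the raw p of 1e-05 being the smallest the permutations can give). Without the 2 mice farthest from the median r was -0.903, and within the 17 libraries it was -0.638.

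On the AEA side, Napepld encodes the phospholipase D that releases AEA from its membrane precursor. Napepld was lowest at 7.13, median 8.84 and highest at 12.75 FPKM in Ctrl mice, 8.58, 9.80 and 10.08 FPKM in EtOH mice, and 7.83, 10.64 and 12.97 FPKM in EtOH-UA mice. The EtOH values sat inside the ranges of both other groups, and the SD was 2.13 FPKM for Ctrl, 0.604 for EtOH and 1.71 for EtOH-UA mice. This difference in spread was not tested. The log2 fold change was 0.05 (95% confidence interval -0.19 to 0.29) in EtOH against Ctrl mice and 0.10 (-0.15 to 0.36, limma adjusted p = 0.907) in EtOH-UA against EtOH mice, the widest intervals among the 9 genes.

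Faah encodes fatty acid amide hydrolase, which degrades AEA. It lay between 33.21 and 43.50 FPKM in Ctrl mice, with a median of 35.82. EtOH mice had 31.75 to 44.00 FPKM, median 35.51, and EtOH-UA mice 33.71 to 45.31 FPKM, median 38.30. The 3 groups overlapped over most of their ranges. In EtOH-UA against EtOH mice the log2 fold change was 0.08 (95% confidence interval -0.07 to 0.23, limma adjusted p = 0.9, exact permutation p = 0.318), and in EtOH against Ctrl mice -0.024.

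**Figure D2:**
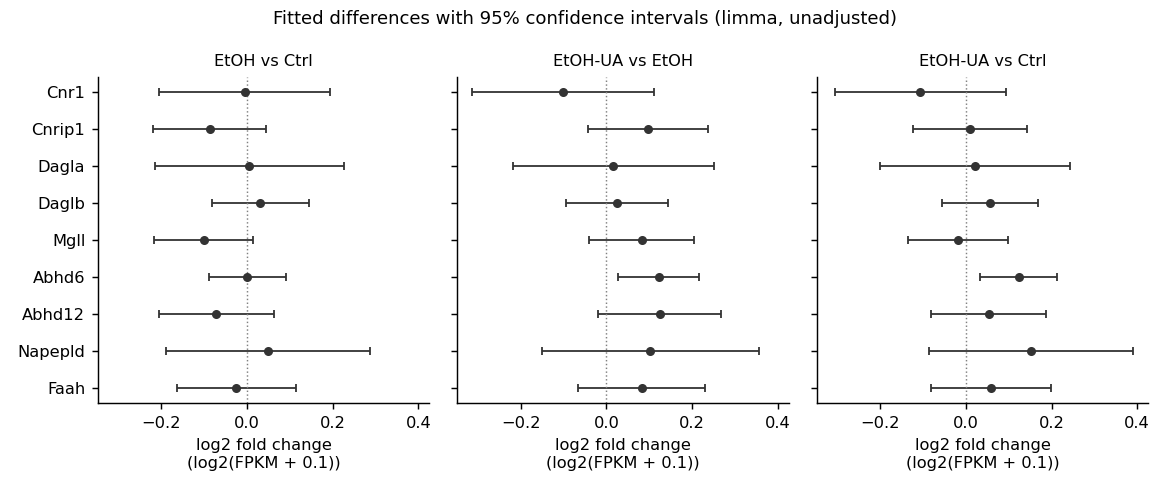
Log2 fold change on the log2(FPKM + 0.1) scale (horizontal axes) of each gene in the 3 comparisons, with unadjusted 95% confidence intervals from limma. Intervals exclude 0 only for Abhd6, in EtOH-UA against EtOH (0.03 to 0.22) and against Ctrl mice (0.03 to 0.21), and neither passes adjustment over all genes.

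As a group, 0 of the 9 genes passed an adjusted p under 0.05 by limma in any of the 3 comparisons, as did 0 (0%) of the 15985 genes tested. At an unadjusted limma p under 0.05 there were 0 of 9 in EtOH against Ctrl mice, where 3.05% of all genes tested had such a p, 1 in EtOH-UA against EtOH mice (Abhd6, background 3.27%) and 1 in EtOH-UA against Ctrl mice (Abhd6, background 3.08%). A count of 1 in 9 is too small to be read against these backgrounds. The counts also moved with single libraries. Leaving out 1 mouse at a time gave 0 to 2 of the 9 in EtOH against Ctrl mice and 1 to 3 in EtOH-UA against EtOH mice, the highest count of each without the EtOH mouse of high summed FPKM. Without all 6 libraries the counts were 1 and 3, and array weights gave 2 in EtOH against Ctrl mice. The share of all genes with such a p was not taken in these alternative fits, so their counts cannot be read as a result about the 9 genes. In EtOH against Ctrl mice 5 of the 9 were lower, beside 51.4% of all genes, and their median log2 fold change was -0.0055 beside -0.0030 over all genes. Between EtOH-UA and EtOH mice only Cnr1 was lower and 8 were higher in fitted value, beside 48.8% of all genes lower, with a median of 0.08 beside 0.0033. Between EtOH-UA and Ctrl mice Cnr1 and Mgll were lower, beside 48.8%, with a median of 0.05 beside 0.0024. The EtOH-UA comparisons share mice with each other, and EtOH mice enter 2 of the 3. Genes changed by a log2 of 0.5 in simulated EtOH-UA and EtOH mice were recovered in 89.5% of cases and those changed by 0.3 in 43.5%, and every fitted difference of the 9 genes was smaller than 0.3. The simulation changed 200 genes by the same amount and drew the noise of each gene independently. It lacked the composition differences of the real libraries, so these rates do not give the power for the 9 genes.

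Ratios of transcripts within a mouse do not depend on how a library was scaled, but they can still carry its length slope. Napepld to Faah and Dagla + Daglb to Mgll compare synthesis with breakdown. Mgll to Abhd6 + Abhd12 and Dagla to Daglb compare enzymes of the same kind. The ratio of Napepld to Faah averaged 0.255 ± 0.0386 for Ctrl (SD, n = 9), 0.266 ± 0.0199 for EtOH (n = 7) and 0.270 ± 0.0237 for EtOH-UA mice (n = 7). That of Dagla and Daglb together to Mgll was 0.780 ± 0.0719, 0.839 ± 0.052 and 0.816 ± 0.142. All 7 EtOH mice exceeded the Ctrl median of 0.769 for this ratio, with a log2 difference of 0.11 (exact permutation p = 0.0835, Benjamini-Hochberg p over 12 tests 0.89). It was 0.08 without the 6 libraries (exact permutation p = 0.281). Mgll relative to Abhd6 and Abhd12 was 0.297, 0.288 and 0.280 in the same order of groups. The ratio of Dagla to Daglb was 2.35 ± 0.472 for Ctrl, 2.27 ± 0.0943 for EtOH and 2.29 ± 0.421 for EtOH-UA mice, and it ran from 2.11 to 2.4 among EtOH but from 1.67 to 2.75 among EtOH-UA mice. None of the 12 comparisons (4 ratios, 3 pairs of groups) passed, with adjusted exact p-values of 0.89 to 0.931. Without the 6 libraries, the log2 ratio of Dagla to Daglb differed by 0.16 between EtOH-UA and EtOH mice, being the higher in EtOH-UA, with an unadjusted exact permutation p of 0.00866 and an adjusted p of 0.104 over the 12 tests. The removed libraries held the lowest EtOH-UA ratios and the highest EtOH ratio, so leaving them out raises this difference by construction.

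**Figure D3:**
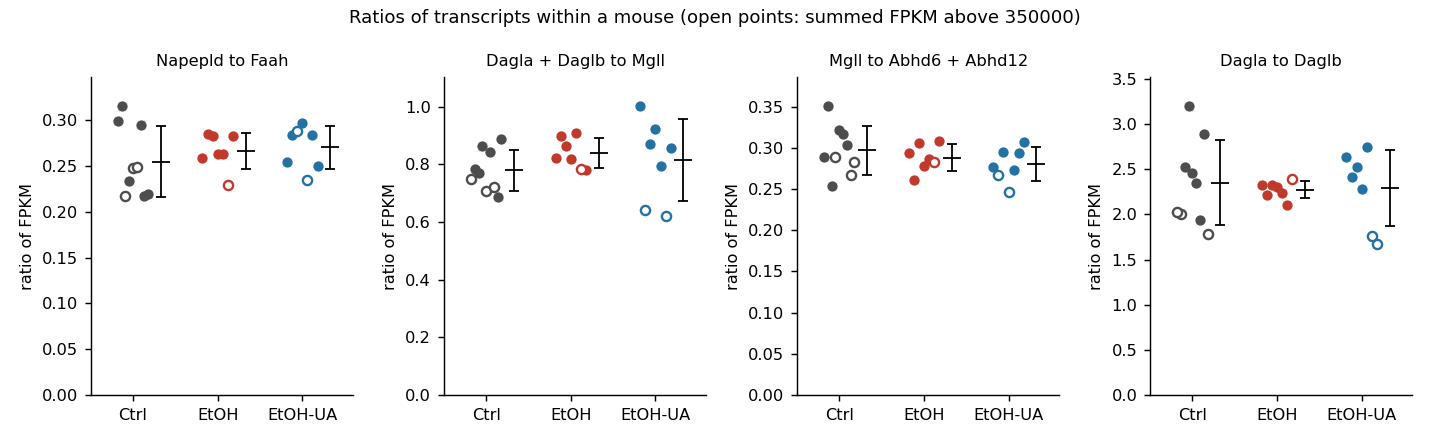
Ratios of FPKM within each mouse (vertical axes, from 0) for Napepld to Faah, Dagla + Daglb to Mgll, Mgll to Abhd6 + Abhd12 and Dagla to Daglb, with mean and SD and open points for the libraries of high summed FPKM. The 2 open EtOH-UA points are the lowest of their group for Dagla + Daglb to Mgll and for Dagla to Daglb.

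Among themselves, the 9 genes varied together in pairs. Group means were removed, and the 36 pairs were correlated over 23 mice with 100000 permutations. By Pearson's r, 7 pairs passed an adjusted p under 0.05, 6 of them positive, and 5 passed by Spearman's rho, with 4 passing by both. The highest was Napepld with Faah, the enzymes that make and degrade AEA (r = 0.763, rho = 0.811, adjusted permutation p = 0.0018 and 0.00108). It was 0.676 without the 2 mice farthest from the median of Napepld, 0.787 without the 2 farthest from that of Faah, 0.811 after quantile normalization and 0.799 within the 17 libraries, and it passed after each of these changes for which a p was computed, the removal for Faah being a value only. What part the subfields of the hippocampus have in this correlation was not tested. Mice with much Napepld transcript also had much Faah, from 7.13 and 33.21 FPKM in a Ctrl mouse to 12.97 and 45.31 FPKM in an EtOH-UA mouse. Dagla joined these genes, with r = 0.574 (rho = 0.658, adjusted permutation p = 0.0271 and 0.0145) with Napepld, which was 0.743 without the 2 mice farthest from the median of Dagla, 0.412 without the 2 farthest from that of Napepld, 0.82 within the 17 libraries and 0.556 after quantile normalization, where it did not pass (adjusted permutation p = 0.0712). With Faah, Dagla had r = 0.502 and rho = 0.617 (adjusted permutation p = 0.0592 and 0.0184), and r was 0.729 without the 2 mice farthest from the median of Dagla, 0.392 without the 2 farthest from that of Faah and 0.873 within the 17 libraries. Cnr1 had r = -0.565 with Faah (adjusted permutation p = 0.0271) but rho = -0.421 (adjusted permutation p = 0.141), and r was -0.392 without the 2 mice farthest from the median of Cnr1 (adjusted permutation p = 0.235), -0.54 without the 2 farthest from that of Faah and -0.259 within the 17 libraries. The first of these removals and the restriction to the 17 libraries both ended the call. Mgll and Faah had r = 0.555 (adjusted permutation p = 0.0294) and rho = 0.464 (adjusted permutation p = 0.104). Its r was 0.334 without the 2 mice farthest from the median of Mgll (adjusted permutation p = 0.331), 0.388 without the 2 farthest from that of Faah and 0.410 within the 17 libraries.

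The other correlated genes were Cnrip1, Abhd6 and Abhd12. Abhd6 with Abhd12 gave r = 0.728 and rho = 0.559 (adjusted permutation p = 0.0018 and 0.0487), with r = 0.703 without the 2 mice farthest from the median of Abhd6 and 0.65 without the 2 farthest from that of Abhd12. Cnrip1 gave r = 0.604 with Abhd6 (rho = 0.542, adjusted permutation p = 0.0243 and 0.0508) and r = 0.596 with Abhd12 (rho = 0.643, adjusted permutation p = 0.0243 and 0.0145). Without the 2 mice farthest from the median of Cnrip1 these were 0.491, which no longer passed (adjusted permutation p = 0.11), and 0.601. Without the 2 farthest from the median of the other gene they were 0.62 and 0.658. These 3 genes have the shortest transcripts of the 9 (1999 to 2226 bases for the longest form of each, against 3954 or more), and each followed the length slope of the libraries (r = -0.719 for Abhd6 and -0.657 for Cnrip1, beside -0.884 for Abhd12). Within the 17 libraries these were -0.214, -0.253 and -0.638. After quantile normalization the correlation of Abhd6 with Abhd12 was 0.400 and that of Cnrip1 with Abhd12 was 0.105, and within the 17 libraries they were 0.446 and 0.465. Neither passed in either setting, with adjusted permutation p-values of 0.262 and 0.779 after quantile normalization and 0.218 for both within the 17 libraries. The correlation of Cnrip1 with Abhd6 was 0.368 after quantile normalization and did not pass, whereas within the 17 libraries it was 0.689 and did. Napepld had r = 0.0659 (rho = 0.268) with the length slope and Faah r = -0.343 (rho = -0.0978). Without the 2 mice farthest from the median slope these r were 0.426 and 0.146. Within the 17 libraries they were 0.21 and -0.258.

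**Figure D4:**
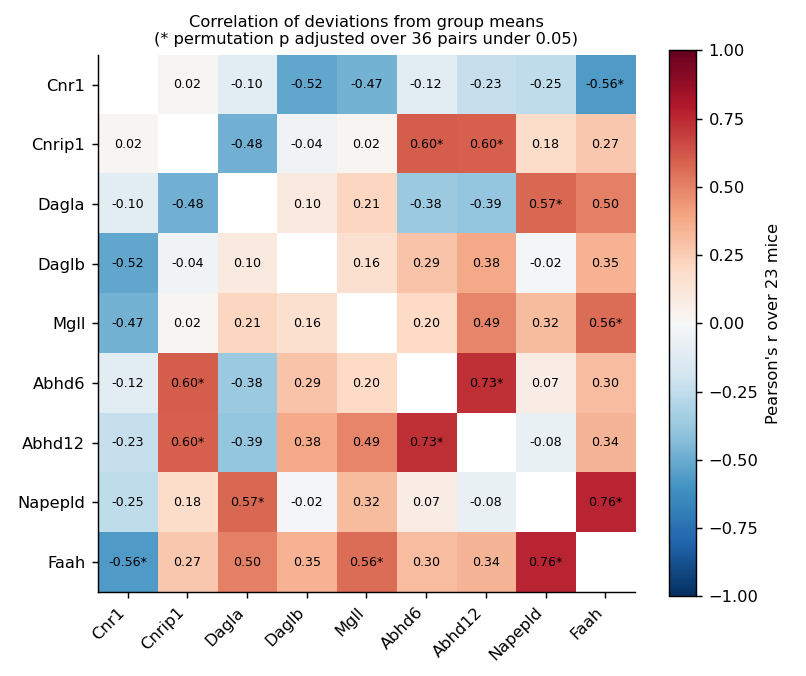
Pearson's r over 23 mice between deviations from group means of log2(FPKM + 0.1) for each pair of the 9 genes, from blue (negative) to red (positive), with asterisks for an adjusted permutation p under 0.05. Napepld and Faah (0.763) and Abhd6 and Abhd12 (0.728) are the darkest red cells.

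**Figure D5:**
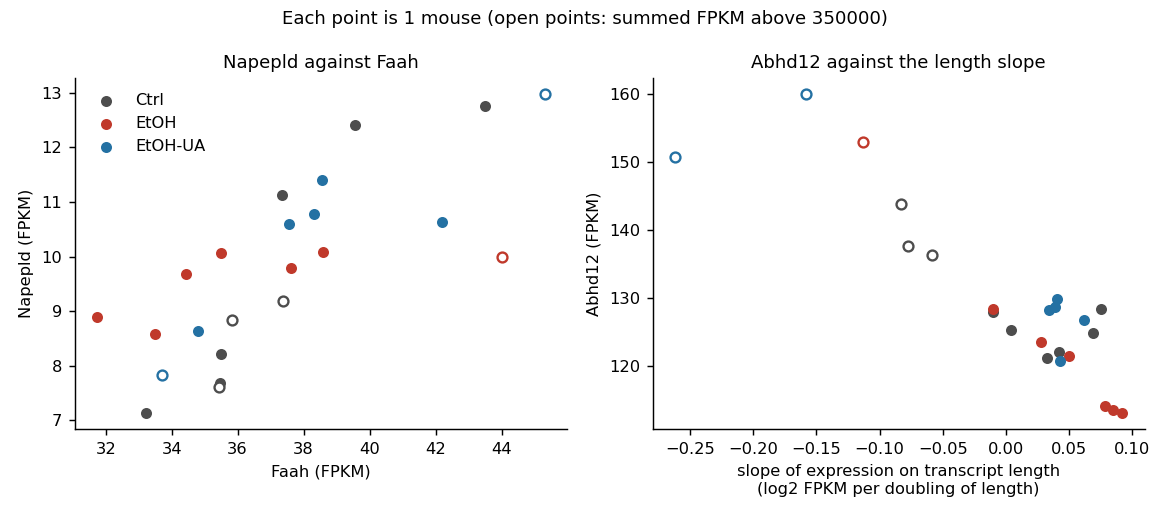
Left, Napepld against Faah in FPKM, each point 1 mouse coloured by group. Right, Abhd12 in FPKM against the slope of expression on transcript length of the same library, where the 6 open points, of high summed FPKM, lie at slopes of -0.262 to -0.0587 and hold the 6 highest Abhd12 values.

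The promoters of Napepld and Faah are shown because their transcripts had the highest correlation of the 36 pairs. RefSeq promoter windows, 250 bases before to 50 bases after a transcript start in GRCm38.p6, were found for 7 of the 9 genes. The Napepld window (chr5:21701573-21701872, minus strand) has a GC content of 70.3% and the Faah window (chr4:116017875-116018174, minus strand) 57.7%, beside a median of 52.7% over 32851 windows. The windows are not placed alike. On the minus strand a gene begins at its highest coordinate, 21701622 for Napepld, inside its window, and 116018837 for Faah. The Faah window therefore lies wholly inside the gene, at a transcript start within it. Both strands were searched for the GC box core GGGCGG, the CCAAT box by its letters CCAAT, the TATA box TATAAA, the E-box CACGTG, the cAMP response element TGACGTCA and the YY1 core AAGATGGC, and the matches are in capitals, read 5′ to 3′ along the gene.
Napepld: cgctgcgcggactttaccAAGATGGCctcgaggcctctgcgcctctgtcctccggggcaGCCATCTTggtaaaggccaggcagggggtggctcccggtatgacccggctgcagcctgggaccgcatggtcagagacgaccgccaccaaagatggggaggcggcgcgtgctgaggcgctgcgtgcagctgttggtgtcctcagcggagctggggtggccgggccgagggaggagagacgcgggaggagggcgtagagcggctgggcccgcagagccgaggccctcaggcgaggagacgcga
Faah: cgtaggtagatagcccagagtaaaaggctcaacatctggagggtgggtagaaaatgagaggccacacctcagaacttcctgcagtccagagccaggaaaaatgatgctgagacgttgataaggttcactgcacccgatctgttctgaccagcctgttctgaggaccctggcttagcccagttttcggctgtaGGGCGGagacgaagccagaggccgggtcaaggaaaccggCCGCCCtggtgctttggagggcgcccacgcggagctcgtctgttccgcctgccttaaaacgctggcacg
Napepld holds the YY1 core in 2 places, forward at 232 and reversed at 191 bases before the start, and 2.75% of all windows hold it. Faah holds the GC box core in 2 places, forward at 58 and reversed at 19 bases before the start, and 35.7% of all windows hold it. No motif searched was in both windows, and a match describes letters only.

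Each gene was compared over the 23 mice with the 12903 genes of at least 1 FPKM to find those that varied most like it, by Pearson's r of the deviations from group means. This is a description, with the highest values picked from many. The genes most like Napepld were Nptx1 (r = 0.924), a neuronal pentraxin, Kcns2 (0.902), a potassium channel subunit, and the ephrin receptor Epha7 (0.899). For Faah they were Pgbd5 (0.926), Kcnip2 (0.912) and Ppp1r13b (0.91), Kcnip2 being a partner of A-type potassium channels. Among the genes most like Dagla were the membrane skeleton genes Sptb (0.94) and Add2 (0.939). Mgll was nearest to Glul (0.856), Prodh (0.806) and Slc2a1 (0.776), of which Glul encodes glutamine synthetase, an astrocyte enzyme, and Slc2a1 the glucose transporter of the blood-brain barrier. Cnr1 had Tcaf1 (0.876), Epyc (0.863) and Dyrk2 (0.862) as its nearest genes, and Cnrip1 had Cdc42 (0.927), Dars (0.907) and Eif1a (0.904). Abhd6 was nearest to Glrx3 (0.863), Tspan31 (0.852) and Laptm4b (0.844), and Abhd12 to Capzb (0.952), Poldip2 (0.952) and Tprgl (0.936). Daglb had no gene above 0.721, the value for Ddit3, followed by Dph2 (0.717) and Map3k11 (0.703). Within the 17 libraries these values ran from 0.643 (Dph2 with Daglb) to 0.944 (Kcnip2 with Faah). They were 0.934 for Nptx1 with Napepld and 0.821 for Capzb with Abhd12. Among those that fell were Tspan31 with Abhd6 (0.647), Poldip2 with Abhd12 (0.762) and Epyc with Cnr1 (0.746). Epyc averaged only 1.1 FPKM.

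The wider pathway was followed through 49 further genes, of which 48 passed the filter on low values, Trpv1 being the exception. They were other receptors of these lipids, other routes of AEA synthesis, other breakdown enzymes and carriers, the receptors and phospholipases that drive 2-AG release, and the G proteins, channels and partners of CB1R. By limma 0 of the 48 passed the adjusted threshold in any comparison. At an unadjusted limma p under 0.05 there were 0 in EtOH against Ctrl mice, 1 higher and 3 lower in EtOH-UA against EtOH mice, and 1 lower in EtOH-UA against Ctrl mice, where 3.05%, 3.27% and 3.08% of all genes had such a p. Median log2 fold changes were 0.016, -0.014 and -0.014. Cnr2, the receptor of immune cells, was near the limit of detection, with means of 0.25, 0.263 and 0.254 FPKM across Ctrl, EtOH and EtOH-UA mice. Pla2g4e, a calcium-dependent acyltransferase that makes the precursor which Napepld cleaves, spanned 2.22 to 3.5 FPKM across Ctrl, 2.4 to 3.98 across EtOH and 1.25 to 3.12 across EtOH-UA mice. For EtOH-UA mice the log2 fold change was -0.40 against EtOH mice (limma adjusted p = 0.9) and -0.37 against Ctrl mice (limma adjusted p = 0.999). Arrb2, which encodes the β-arrestin that desensitises CB1R, had 0.17 in EtOH-UA against EtOH mice. Rims1, a presynaptic release protein, had -0.17, and Gprasp1, which sorts internalised receptors, had -0.12, all with a limma adjusted p of 0.9. In the same comparison Fabp3 and Inpp5d, at 0.18 and 0.11, were next among the higher genes. In EtOH against Ctrl mice the smallest p-values belonged to Gdpd1 (-0.11), Arrb2 (-0.09) and Rgs7 (-0.048) among the lower genes and to Naaa (0.08), Gnai3 (0.07) and Gpr55 (0.26) among the higher, with an adjusted p of 0.999 for each. Naaa (0.09), Gnai3 (0.07) and Arrb2 (0.07) were the higher genes of smallest p in EtOH-UA against Ctrl mice, and after Pla2g4e the lower genes were Gprasp1 (-0.10) and Rims1 (-0.10).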

How the data were processed

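Hippocampal RNA of 23 mice (9 Ctrl, 7 EtOH, 7 EtOH-UA) was sequenced as paired-end reads. The authors deposited FPKM, given to 2 decimals, from RSEM after alignment of the cleaned reads to mm10 by Bowtie2. The labels also name HISAT2 2.1.0, Bowtie2 2.2.5, RSEM 1.2.8 and StringTie, and total RNA where the methods name poly(A)+ RNA. FPKM are not counts, so the DESeq2 test of the methods was not used. Columns were assigned to groups by name, and 283 genes were at 0 in all mice.

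Values were analysed as log2(FPKM + 0.1), a scale that understates changes of low genes. The 15985 genes that averaged 0.1 FPKM or more entered a linear model in limma 3.58.1 (R 4.3.3), with all 3 groups in one model, an intensity trend and Benjamini-Hochberg adjustment over all genes. For single genes and ratios, exact permutation tests (two-sided) used all 3432 splits (EtOH-UA against EtOH, smallest possible p 0.000583) or 11440 (against Ctrl, 8.74e-05). Mice were housed in shared cages, and the cage of each mouse did not enter the tests. Genes named from the pathway list were the 3 of smallest p in each direction, and for each member the 3 most alike genes, of which 1 is not reported here. The members, lists and tests were chosen with earlier results of these data known. Transcript lengths came from GENCODE and coordinates and promoters from RefSeq. The fit was tested on simulated data (15985 genes, 200 changed), where 0 genes were called when none was changed. The alternatives tried were other pseudocounts, filters, scalings, weights, a length slope covariate and each mouse left out.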

Additional observations from a re-analysis of the deposited data

Results flagged for a closer look

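In EtOH mice, 1 mouse stood apart from the other 6 in Mgll and in Abhd12. Its Mgll was 50.63 FPKM where the next highest was 43.10, a gap that took a share of 0.642 of the group's whole range. Its Abhd12 was 153.04 FPKM where the next highest was 128.40, a share of 0.58. This was the EtOH library with the highest summed FPKM, 366930. It also held the highest Faah (44.00 FPKM) and Abhd6 (26.16 FPKM) and the lowest Cnr1 (39.14 FPKM) of the EtOH group. In 39 groups of values such a gap is met by chance in about 1.95, and 2 were found. The part of the library's composition in these values was not tested.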

How the results depend on the processing

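No member passed an adjusted p under 0.05 in any of the alternatives, the smallest adjusted p being 0.552 over 918 alternative values. Directions changed mainly for differences near 0. Cnr1 in EtOH against Ctrl mice was 0.013 with upper-quartile scaling, 0.022 with quantile normalization, 0.035 with array weights and 0.018 without the 6 libraries of high summed FPKM. Dagla in that comparison was -0.029 with array weights, -0.040 with the length slope as covariate, -0.11 without the 6 libraries and -0.0884 FPKM on the linear scale, Abhd6 was -0.018 with array weights and Napepld -0.019 without the 6 libraries. Dagla in EtOH-UA against EtOH mice was -0.0041 with upper-quartile scaling. In EtOH-UA against Ctrl mice, Cnrip1 was -0.0070 with quantile normalization, -0.027 with array weights, -0.017 with the length slope and -0.044 without the 6 libraries, and Abhd12 -0.0030 with array weights. Ratios in EtOH-UA against EtOH mice without the 6 libraries were 0.066 for Dagla + Daglb to Mgll, 0.0034 for Mgll to Abhd6 + Abhd12 and 0.16 for Dagla to Daglb. The cause was not tested.

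With array weights 1 gene of all tested was called in EtOH against Ctrl mice instead of 0, and after quantile normalization 2 pairs of members passed by correlation instead of 7. Leaving out 1 mouse at a time gave 0 to 1 genes called in each comparison. It turned the sign of Cnr1 (-0.040 to 0.039), Dagla (-0.035 to 0.043), Abhd6 (-0.017 to 0.018) and Faah (-0.0705 to 0.0077) in EtOH against Ctrl mice, of Dagla (-0.0524 to 0.0898) in EtOH-UA against EtOH mice, and of Cnrip1 (-0.040 to 0.035), Dagla (-0.047 to 0.10) and Mgll (-0.047 to 0.011) in EtOH-UA against Ctrl mice. Ratios that turned were Napepld to Faah (-0.016 to 0.0531) and Dagla + Daglb to Mgll (-0.11 to 0.0043) in EtOH-UA against EtOH mice, the latter also against Ctrl mice (-0.0021 to 0.11), and Dagla to Daglb in all 3 comparisons (-0.0730 to 0.0325, -0.0564 to 0.0631 and -0.0826 to 0.0370). No paired analysis was possible because the columns carry mouse numbers and not the replicate numbers of the labels, and the planned replicate block was not run.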
